A study of Rattus norvegicus with 12 samples.

Results

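The genes of the plasminogen activator system studied here were Plau, Plat, Plaur and Serpine2. They were chosen by their gene symbol in the annotation of the Affymetrix rat array, with earlier results of these data known. Each was measured by 1 probe set, so that 4 of the 8740 probe sets tested, or 4 of the 4736 genes they name, belong to the system. Mixed glial cultures from newborn rat brain were kept in defined medium with fetal bovine serum and were given a cytokine mixture for 6 hours or left as controls. The Th1 mixture held TNF-a and interferon-g, with IL-2 and G-CSF, and the M/M mixture, for monocyte/macrophage, held IL1a, IL1b, IL-12p40 and TNF-a. The Th2 mixture held IL-5, IL-10, G-CSF and TGF-b1 of the pig, each cytokine at 10 ng/ml, while the study's methods also place IL-6 in the M/M and IL-4 in the Th2 mixture. There were 3 separate experiments on different cultures, each with 1 array for control, Th1, M/M and Th2, which makes 12 arrays. No member had a signal below the floor of 0.1 on any array, and all 4 entered the test.

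Plasmin, the protease that dissolves fibrin and also cleaves extracellular matrix, is made from plasminogen by either of a pair of activators. Urokinase, from Plau, works at the cell surface when it is bound to its receptor, from Plaur, whereas tissue plasminogen activator, from Plat, is known in brain for its roles in synapses, in microglia and at the vessel wall. Protease nexin-1, from Serpine2, is a serpin that glia and neurons release, and it inhibits thrombin, urokinase and tissue plasminogen activator. The activators, the receptor and the inhibitor together set how much plasmin forms around a cell.

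RefSeq held an upstream sequence for 3 of the 4 genes, in the rat build GRCr8. The 250 bases before the gene's start are shown here, on the strand of the gene, to set the receptor beside the activator it binds and the inhibitor. Capitals mark matches to 5 motifs on either strand, chosen with the values known: AP-1 (TGANTCA), Sp1 (GGGCGG), STAT (TTCNNNGAA), Smad (CAGACA) and the kappaB consensus. Plaur lies on the plus strand, with the window at chr1:89181113-89181362, Plau on the minus strand at chr15:3511988-3512237 and Serpine2 on the minus strand at chr9:88637203-88637452.
Plaur: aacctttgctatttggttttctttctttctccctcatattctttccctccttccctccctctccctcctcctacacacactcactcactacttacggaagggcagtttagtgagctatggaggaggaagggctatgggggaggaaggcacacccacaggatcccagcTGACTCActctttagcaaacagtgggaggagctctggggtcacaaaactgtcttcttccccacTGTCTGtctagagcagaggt
Plau: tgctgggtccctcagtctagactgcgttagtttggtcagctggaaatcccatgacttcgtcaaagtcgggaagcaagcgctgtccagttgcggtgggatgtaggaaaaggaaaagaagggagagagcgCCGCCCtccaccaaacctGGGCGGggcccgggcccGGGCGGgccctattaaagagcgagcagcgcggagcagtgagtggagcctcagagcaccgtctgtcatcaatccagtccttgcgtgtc
Serpine2: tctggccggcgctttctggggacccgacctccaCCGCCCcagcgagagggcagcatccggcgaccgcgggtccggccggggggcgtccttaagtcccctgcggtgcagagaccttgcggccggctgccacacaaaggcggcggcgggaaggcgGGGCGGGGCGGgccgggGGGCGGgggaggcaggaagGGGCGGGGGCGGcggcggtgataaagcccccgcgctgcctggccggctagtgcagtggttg

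The window of Plaur has 1 AP-1 match, which begins 83 bases before the start, and 1 Smad match on the other strand, 20 bases before the start. Of all 33469 rat promoter windows of this length, 6.34% hold the AP-1 letters and 17.2% the Smad letters. The windows of Plau and Serpine2 hold 3 and 6 matches to Sp1, some of them overlapping in Serpine2. Of all windows 30.5% hold at least 1, and the share with as many as these was not counted. None of the 3 windows holds the STAT letters or the kappaB consensus, which 7.67% and 3.54% of all windows hold. The GC content was 51.2% for Plaur, 60.0% for Plau and 76.8% for Serpine2, against a median of 51.2% over all windows. These are matches of letters, and binding was not measured.

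Before the results, the arrays were set against their labels. Cd74, the class II invariant chain gene that interferon-g induces, had signals of 989 and 344 on the Th1 arrays of experiments 1 and 2 and of 3.70 on the array labelled Th1 in experiment 3. The array labelled M/M in experiment 3 had 1380 for this gene, whereas the M/M arrays of experiments 1 and 2 had 49.0 and 10.5. Vcam1, an adhesion molecule gene that TNF-a induces, had a signal of 1108 on the array labelled Th2 in experiment 3, against 135 and 55.5 in experiments 1 and 2. It had 41.7 on the array labelled Th1 in experiment 3, against 1504 and 521. Both genes were chosen for this check after their values were seen. Each treated array was also set against the mean of the 3 mixtures of its experiment, across the 4370 brighter probe sets. These deviations correlated between experiments 1 and 2 at 0.57 to 0.75 for arrays with the same label, but between experiments 1 and 3 at -0.435 to 0.067 and between experiments 2 and 3 at -0.375 to 0.099. Across labels, the array labelled Th1 in experiment 3 correlated with the Th2 arrays of experiments 1 and 2 at 0.585 and 0.581. The array labelled M/M correlated with their Th1 arrays at 0.53 and 0.41, and the array labelled Th2 with their M/M arrays at 0.42 and 0.36. The cytokine-treated arrays of experiment 3 thus go against their labels, and a count over 3 of 3 experiments for 1 mixture holds only for the labels as given. A count over 9 of 9 treated arrays does not depend on which mixture an array is labelled with, but it does depend on the control labels. These were not tested, since the correlations use treated arrays only. The control array of experiment 3 had signals of 4.10 for Cd74 and 71.6 for Vcam1, against 3.70 and 41.7 on the array labelled Th1. The arrays are grouped here as labelled, and each member's differences are also given for experiments 1 and 2 alone.

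Of the cell type markers, those of astrocytes (6 of 7 measured) summed to 4473 to 8525 on control arrays and those of oligodendrocytes (6 of 7 measured) to 3687 to 13592. Endothelial markers summed to 92.1 to 235 on control arrays (4 of 6 measured) and neuronal ones to 111 to 405 (5 of 6 measured). Those of fibroblasts (5 of 5 measured) summed to 714 to 4347 and those of oligodendrocyte precursors (2 of 4 measured) to 391.6 to 625, and none was at 0. Median signals were 26.9 to 59.1 on control arrays and 42.2 to 60.9 on M/M arrays. Over all probe sets, M/M arrays exceeded control by a median log2 difference of 0.33, Th2 arrays by 0.19 and Th1 arrays by 0.14, so differences are also given with each array centred on its median. In cultures of mixed cells, fewer cells of a type and less RNA per cell cannot be told apart.

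Plaur, for the urokinase receptor, had a signal of 59.7, 44.9 and 114 on the control arrays of experiments 1, 2 and 3. With Th1 it had 79.0, 107 and 162, with M/M 90.4, 91.2 and 292, and with Th2 103, 91.1 and 180.2. It was above the control of its own experiment on 9 of 9 treated arrays, with ratios from 1.32 to 2.57, although the ranges of the groups overlapped. Of all probe sets 5.31% were above their own control on 9 of 9 treated arrays, and 3.14% when the arrays were centred, as Plaur also was. All 3 mixtures are compared with the same control arrays, so the 9 values are not independent.

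The log2 difference of Plaur from control was 0.72 with Th1 (SE 0.28, limma adjusted p = 0.857), 0.99 with M/M (SE 0.28, adjusted p = 0.145) and 0.82 with Th2 (SE 0.28, adjusted p = 0.715). None passed the test after adjustment over all probe sets, while the unadjusted p values by limma were 0.0212, 0.00319 and 0.0105. With each array centred, the differences of Plaur came to 0.56, 0.57 and 0.61. In experiments 1 and 2 alone they were 0.83, 0.81 and 0.90, with adjusted p values of 0.491, 0.393 and 0.611. The differences thus lay close together for the 3 mixtures on the centred scale.

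**Figure D1:**
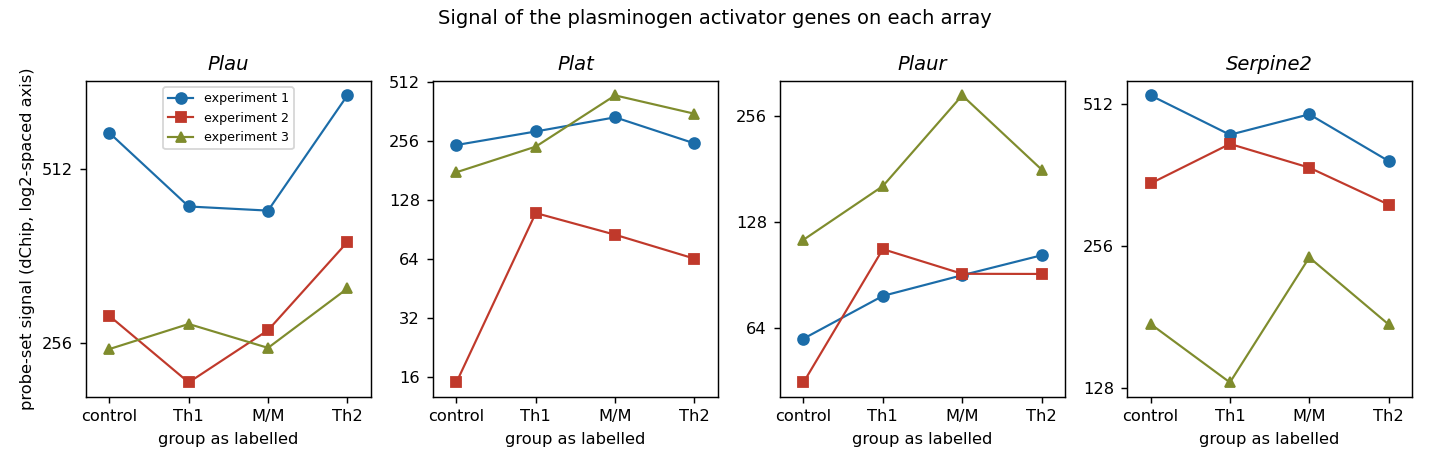
Signal of each gene (vertical axis, log2-spaced, in dChip signal units with its own range for each gene) in the 4 groups as labelled, with 1 line for each experiment. Plat and Plaur lie above their control on 9 of 9 treated arrays, and Plau is highest on the array labelled Th2 in 3 of 3 experiments. With each array centred on its median, Plau was above its own control with Th2 in 2 of 3 experiments.

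Plat, for tissue plasminogen activator, had control signals of 244, 15.04 and 177 in experiments 1, 2 and 3. The Th1 arrays had 286, 110 and 239, the M/M arrays 337, 85.1 and 437, and the Th2 arrays 249, 64.3 and 352. Plat was above its own control on 9 of 9 treated arrays, also when the arrays were centred, but the ratio ranged from 1.02 to 7.30. All 3 ratios of experiment 2 were above those of the other experiments, where the control array of experiment 2 was the lowest of all 12 arrays.

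The log2 difference of Plat was 1.18 with Th1 (SE 0.41, limma adjusted p = 0.857), 1.42 with M/M (SE 0.41, adjusted p = 0.167) and 1.04 with Th2 (SE 0.41, adjusted p = 0.715). Their unadjusted p values by limma were 0.0140, 0.00447 and 0.0265. Centred arrays gave 1.02, 0.996 and 0.83, and experiments 1 and 2 alone gave 1.55, 1.48 and 1.06 (adjusted p = 0.553, 0.439 and 0.611). Without the control array of experiment 2 the differences were 0.54, 0.79 and 0.40, so that this array carries much of their size. When only M/M and control arrays were fitted, the difference of 1.42 passed the test (adjusted p = 0.00316), and over the other alternatives for M/M the adjusted p ranged from 0.0602 to 0.9997.

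Plau, for urokinase, had control signals of 590, 285 and 250.2 in experiments 1, 2 and 3, and 684, 383 and 318 with Th2. The Th1 arrays had 440, 219 and 276, and the M/M arrays 433, 270 and 251. The array labelled Th2 was thus the highest of its experiment in 3 of 3 experiments, at 1.16, 1.34 and 1.27 times the control. This holds for the deposited signals, while with centred arrays it was above its own control in 2 of 3 experiments. The share of all probe sets that were highest with Th2 was not counted. With Th1 the ratios were 0.747, 0.768 and 1.10, and with M/M they were 0.735, 0.945 and 1.005, so that both mixtures were below control in experiments 1 and 2 and not in experiment 3. In experiment 3 the array labelled Th1, which correlated with the Th2 arrays of the other experiments, had 276, below the 318 of the array labelled Th2.

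The log2 difference of Plau from control was 0.33 with Th2 (SE 0.20, limma adjusted p = 0.743), -0.22 with Th1 (SE 0.20, adjusted p = 0.873) and -0.17 with M/M (SE 0.20, adjusted p = 0.678). With centred arrays these were 0.12, -0.38 and -0.60. Experiments 1 and 2 alone gave 0.32, -0.40 and -0.26, with adjusted p values of 0.611, 0.558 and 0.502. With centred arrays of these experiments the values of Plau were 0.055, -0.71 and -0.58, with limma adjusted p values of 0.904, 0.178 and 0.173. Against all experiments centred, the value with Th1 was thus further below 0, and that with M/M was not. On no scale did Plau pass the test against control.

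Serpine2, for protease nexin-1, was measured by a probe set whose name marks it as one that may match more than 1 transcript. Its control signals were 534, 347 and 175 in experiments 1, 2 and 3, against 440, 421 and 132 with Th1, 487, 375 and 242 with M/M, and 387, 313 and 175 with Th2. The 4 arrays of experiment 3 had the lowest signals of all, the groups overlapped, and among the mixtures only Th2 was below control in 3 of 3 experiments, with a ratio of 0.998 in experiment 3. Its log2 difference was -0.14 with Th1 (SE 0.23, limma adjusted p = 0.935), 0.15 with M/M (SE 0.23, adjusted p = 0.765) and -0.20 with Th2 (SE 0.23, adjusted p = 0.839). With each array centred, Serpine2 was below its own control on 9 of 9 treated arrays, at -0.30, -0.28 and -0.42 on the log2 scale, so that the sign for M/M turned. Of all probe sets, 3.17% were below their own control on 9 of 9 treated arrays on that scale. Without centring, experiments 1 and 2 gave 0.0006, -0.011 and -0.31, with an adjusted p of 0.611 for the last.

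**Figure D2:**
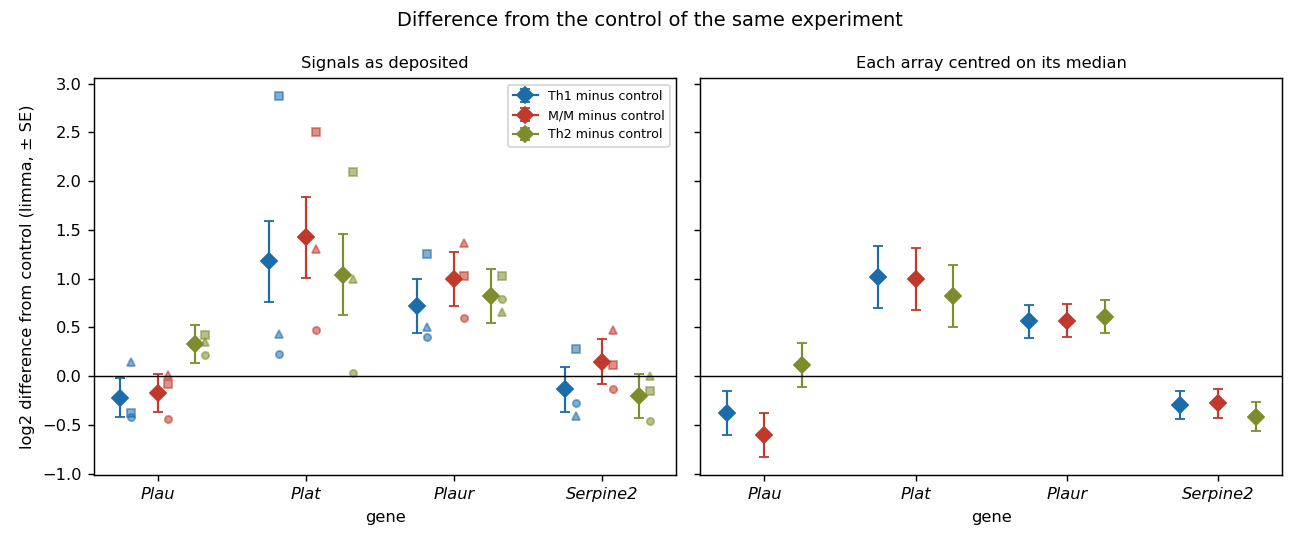
Log2 difference from the control of the same experiment for each gene and mixture, as the limma estimate (diamond) ± SE, with signals as deposited (left, where circles, squares and triangles are experiments 1, 2 and 3) and after centring by array median (right). Plat and Plaur lie above 0 with every mixture on both scales, while Serpine2 with M/M moves from 0.15 to -0.28.

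Across the system, 0 of 4 members passed the adjusted test by limma against control with any mixture, where 0%, 0.263% and 0.0114% of all probe sets passed with Th1, M/M and Th2. At an unadjusted p under 0.05, 2 of 4 members were higher with each mixture, Plat and Plaur, against 4.75%, 15.4% and 6.06% of all probe sets. No member was lower at that level, against 0.812%, 0.584% and 0.686%. Plat and Plaur were at that level with all 3 mixtures, as were 2.04% of all probe sets, or 1.41% with centred arrays. With centred arrays these genes were the 2 members higher with each mixture (3.54%, 5.33% and 4.29% of all), while Plau was lower with M/M and Serpine2 with Th2 (8.02% and 3.51% of all, and 3.17% with Th1). In experiments 1 and 2 alone both were higher with Th1 and M/M and Plaur with Th2 (7.43%, 8.57% and 4.73% of all), and Plau was lower with Th1 (1.48%, 2.77% and 1.59%). There 0.664% and 0.389% of all probe sets passed the adjusted test with Th1 and M/M and 0% with Th2, and 0 of 4 members did.

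Above their own control in 3 of 3 experiments were 3 members with Th2 and 2 with either Th1 or M/M, against 25% of all probe sets for Th2, 14% for Th1 and 32% for M/M. Below it in 3 of 3 experiments was 1 member, Serpine2 with Th2, against 5.72%, 3.66% and 6.46% of all. No member had every treated array above every control array, which 1.54%, 7.48% and 2.77% of all probe sets had. The screening criteria of the study's methods, more than 2-fold with a p under 0.2, were applied here with an analysis of variance without the replicate block, since the methods do not say whether theirs was paired. They were met by 0 of 4 members for any mixture, against 242, 596 and 299 of the 8740 probe sets with Th1, M/M and Th2. Fold was taken here from mean log2 signals, whereas the study's table averages the fold changes of its 3 experiments. That measure was not applied here. After Benjamini-Hochberg adjustment 0 members passed as well. In the fit with the block, Plat met the same limits with each mixture, at folds of 2.26, 2.68 and 2.05. Its unadjusted p values by limma there were 0.0140, 0.00447 and 0.0265.

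The mixtures were then compared with each other, with the arrays as labelled. Cultures were given cytokines and not cells, so these comparisons concern the mixtures, and answers to kinds of immune cell were not tested. In the plot of differences between mixtures, the intervals that exclude 0 are those of Plau. Plau was lower with Th1 than with Th2 by a log2 difference of -0.55 (SE 0.20, 95% interval -0.98 to -0.12, limma adjusted p = 0.9997) and lower with M/M than with Th2 by -0.50 (SE 0.20, 95% interval -0.93 to -0.073, adjusted p = 0.998), in 3 of 3 experiments each. With centred arrays Plau was higher with Th1 than with Th2 in 1 of 3 experiments, and higher with M/M than with Th2 in 0. These counts hold for the labels as given, and the share of all probe sets was not counted. Neither difference of Plau passed the adjusted test. The unadjusted p values by limma were 0.0161 and 0.0251, a level at which 1.25% and 0.744% of all probe sets were lower. In experiments 1 and 2 alone the differences of Plau were -0.72 (adjusted p = 0.290) and -0.58 (adjusted p = 0.640), and with centred arrays -0.49 and -0.72. At an unadjusted p under 0.05 Plau was lower in both comparisons in experiments 1 and 2 (1.42% and 1.97% of all probe sets) and with centred arrays for M/M minus Th2 (2.84%) and not for Th1 minus Th2 (1.78%). In experiments 1 and 2, 0.469% and 0.263% of all probe sets passed the adjusted test for these comparisons, and 0 of 4 members did. No other member reached that unadjusted level between mixtures, where 0.606% of all probe sets were higher with Th1 than with Th2, 3.18% higher with M/M than with Th2, and 0.24% higher and 2.65% lower with Th1 than with M/M.

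Plaur differed by -0.27 between Th1 and M/M (95% interval -0.87 to 0.32), by -0.10 between Th1 and Th2 (-0.70 to 0.49) and by 0.17 between M/M and Th2 (-0.42 to 0.77). For Plat the corresponding log2 differences were -0.25 (95% interval -1.14 to 0.65), 0.14 (-0.76 to 1.04) and 0.39 (-0.51 to 1.28), so that differences of more than 2-fold between mixtures are not excluded for this gene. Serpine2 had -0.29 (95% interval -0.78 to 0.20), 0.068 (-0.42 to 0.56) and 0.35 (-0.14 to 0.84). For Plat and Serpine2 the difference of M/M over Th2 was above 0 in 3 of 3 experiments as labelled. The adjusted p by limma was 0.998 for each. All probe sets had a median difference of 0.13 there, and their share above 0 in 3 of 3 experiments was not counted. With centred arrays the differences were 0.17 for Plat and 0.14 for Serpine2, above 0 in 2 of 3 experiments. Plau itself differed by -0.046 between Th1 and M/M (95% interval -0.47 to 0.38). In experiments 1 and 2 alone, the differences between Th1 and M/M were 0.064 for Plat, 0.019 for Plaur, 0.0115 for Serpine2 and -0.14 for Plau. Against Th2, Th1 gave 0.49 for Plat, -0.0745 for Plaur and 0.31 for Serpine2 in those experiments, and M/M gave 0.42, -0.093 and 0.29.

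**Figure D3:**
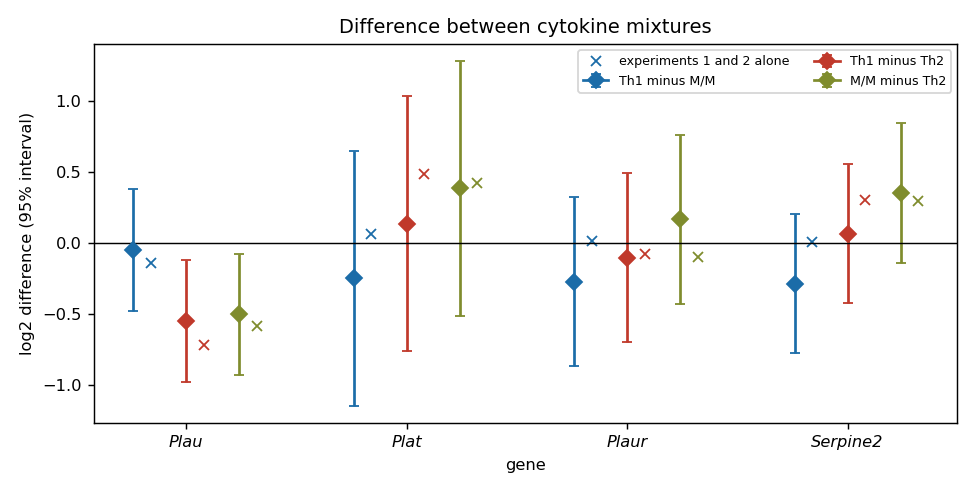
Log2 difference between 2 mixtures for each gene, as the limma estimate (diamond) with its 95% interval over 3 experiments, and the estimate from experiments 1 and 2 alone (cross). The intervals for Plau exclude 0 for Th1 minus Th2 and M/M minus Th2, while those of the other genes include 0.

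The genes around the system were described by role, each by its brightest probe set, and on these lists 0 genes rose and 0 fell past the adjusted test by limma with any mixture. Of plasminogen, its receptors and its substrates, 7 of 7 genes were measured, with median log2 differences of -0.026, 0.28 and 0.072, in the order Th1, M/M, Th2. With centred arrays these medians were -0.19, -0.15 and -0.14, so that the sign turned for M/M and Th2. Eno1, for enolase, which also binds plasminogen at the cell surface, was the brightest of them and had 0.15, 0.28 and 0.025. Fgb, for a chain of fibrinogen, had the largest value of the list, 1.07 with M/M (adjusted p = 0.441), and -0.069 in experiments 1 and 2. Plg, for plasminogen itself, was dim, with mean signals of 7.22 on control, 6.87 on Th1, 8.14 on M/M and 5.43 on Th2 arrays.

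Of other serpins and the protease inhibitor A2m, 9 of 16 genes were measured, with median log2 differences of 0.26, 0.75 and 0.14, or 0.097, 0.32 and -0.077 with centred arrays and 0.52, 0.39 and -0.0007 in experiments 1 and 2. Serpina1, for the inhibitor of neutrophil elastase, had the largest value, 1.70 with M/M (adjusted p = 0.166), and 0.91 in experiments 1 and 2. A2m, the brightest, had 0.40, 0.28 and 0.10. Serpinb2, for another inhibitor of plasminogen activators, had mean signals of 37.0 on control, 39.1 on Th1, 58.2 on M/M and 57.1 on Th2 arrays, and its largest log2 difference was 0.90 with Th2 (adjusted p = 0.717).

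Among clearance receptors and partners of the urokinase receptor, 9 of 11 genes were measured and the medians were 0.21, 0.43 and 0.36, or 0.049, -0.0027 and 0.15 with centred arrays. Itgb1, an integrin chain gene, was the brightest and had 0.25, 0.79 and 0.36, while Itgb3, another integrin chain gene, had the largest value, -1.37 with Th2 (adjusted p = 0.717), at a mean control signal of 8.22. The thrombin list, with 6 of 9 genes measured, had medians of 0.26, 0.35 and 0.18, which with centred arrays were 0.099, -0.073 and -0.036. Its brightest gene was F2r, for the thrombin receptor PAR1, with 0.29, 0.40 and 0.22, and its largest value was that of F2, for thrombin, -0.97 with Th2 (adjusted p = 0.753). Of growth factors that these proteases cleave or release and their receptors, 6 of 6 were measured, with medians of -0.26, 0.042 and 0.18. Their medians were -0.42, -0.39 and -0.034 with centred arrays but 0.18, 0.14 and 0.21 in experiments 1 and 2, so that the direction depends on the scale and on experiment 3. Tgfb1, the brightest, had 0.43, 0.63 and 0.71, and Tgfb3 had the largest value, -1.35 with Th1 (adjusted p = 0.857). The members' own medians were 0.29, 0.57 and 0.58, against 0.14, 0.33 and 0.19 over all probe sets, and no list is read as standing apart from these.

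**Figure D4:**
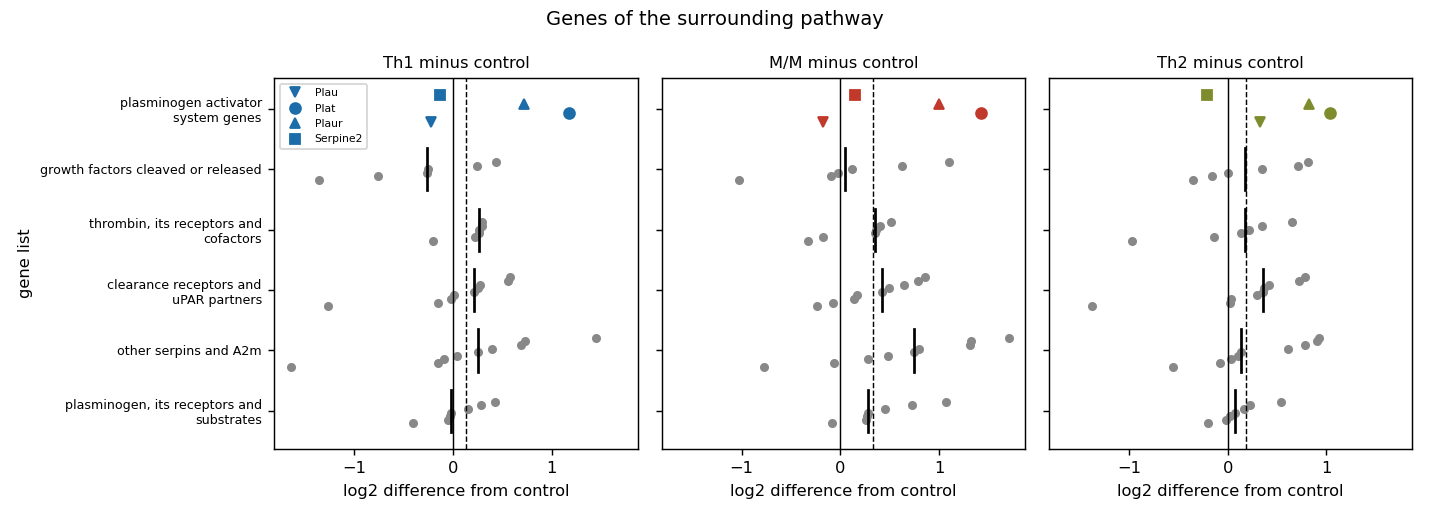
Log2 difference from control (horizontal axis) for Plau, Plat, Plaur and Serpine2 and for the genes of 5 lists (grey points, with the list median as a bar), in 1 panel per mixture, where the dashed line is the median of all probe sets. Plat and Plaur lie right of the dashed line in every panel, at 1.18 and 0.72 with Th1, 1.42 and 0.99 with M/M, and 1.04 and 0.82 with Th2.

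Microglia make several of these proteins, and their markers were summed on each array. The 5 measured markers of 8 summed to 823 to 1943 on control arrays, 1373 to 3938 with Th1, 3272 to 4643 with M/M and 1403 to 2911 with Th2, and none was at 0. Cd14, which activation also induces, rose with M/M by 2.55 on the log2 scale (SE 0.47, limma adjusted p = 0.0486) and made up much of the sum, and that call is lost with centred arrays, where the log2 difference was 2.12 and 0 probe sets passed. In experiments 1 and 2 Cd14 passed with Th1 (2.38, adjusted p = 0.0228) and with M/M (2.53, adjusted p = 0.0221). Aif1, a bright marker at a mean control signal of 538, had log2 differences of 0.44, 0.56 and 0.58 in the order Th1, M/M, Th2. Its unadjusted p values by limma were 0.0862, 0.0369 and 0.031 (adjusted p = 0.857, 0.289 and 0.717). With centred arrays the differences of Aif1 were 0.28, 0.13 and 0.37. Csf1r and Itgam, which define these cells, were dim, at mean control signals of 15.8 and 9.76, with -0.19, 0.090 and 0.64 for Csf1r and 0.56, 0.64 and 0.79 for Itgam. Ptprc, the last of the 5, had 0.060, 0.39 and 0.092. Itgam is on the list of urokinase receptor partners as well. The part of these cells in the values of Plat and Plaur was not tested.

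Of the markers of other cells, none passed the adjusted test by limma with any mixture, and some differed from control at an unadjusted p under 0.05. Aqp4, the water channel gene of astrocytes, had log2 differences of 1.08, 1.65 and 1.26 in the same order (unadjusted p by limma 0.06, 0.00761 and 0.0321), while the median of the 6 astrocyte markers was 0.19, 0.33 and 0.16. Dcn, a proteoglycan gene of fibroblasts, was below its own control on 9 of 9 treated arrays, at -0.78, -0.99 and -0.90 (unadjusted p by limma 0.0132, 0.00312 and 0.00568), and the median of the 5 fibroblast markers was -0.24, 0.38 and -0.0023. Flt1, a receptor gene of endothelium, was also below control on 9 of 9 treated arrays, at -1.07, -0.60 and -0.75. Its unadjusted p values by limma were 0.0212, 0.164 and 0.0901, and the median of the 4 endothelial markers was -0.52, 0.015 and -0.098. With deposited signals, the share of all probe sets below control on 9 of 9 treated arrays was not counted. The endothelial sum was 36 to 125 with Th1, 103 to 122 with M/M and 74.3 to 143 with Th2. Neuronal markers had medians of 0.22, 0.74 and 0.090, oligodendrocyte markers 0.24, 0.27 and 0.20, and precursor markers 0.27, 0.17 and 0.12. The part of these cells was not tested either.

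For each member, genes whose differences from control were most like its own were found over the 9 treated arrays, among 3677 brighter probe sets with 1 gene symbol. Among the 3 genes most like Plat were Ralb (Pearson r = 0.99, or 0.94 with centred arrays) and Glod4 (0.99 and 0.86), and the 3 most like Plaur were Slc25a1 (0.98 and 0.82), Acat1 (0.98 and 0.66) and Sfxn1 (0.98 and 0.58). For Serpine2 these were Btg1 (0.98 and 0.40), Rap1b (0.98 and 0.84) and Ptpro (0.97 and 0.37), and among those for Plau were Vsir (0.78 and 0.79) and Hes1 (0.77 and 0.90). Between Plat and Plaur r was 0.75 with deposited signals and -0.49 with centred arrays. The 9 points share 3 control arrays and the overall brightness of each array, so these values are given as a description.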

How the data were processed

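RNA of 12 rat glial cultures was measured on Affymetrix arrays. The linear intensity values were calculated by the authors with dChip (version 1.2) before they were deposited, and the methods give neither its settings nor a normalization between arrays, so differences in overall brightness stay in the values. Of 8799 probe sets, 59 control probe sets were left out. In the platform annotation, 7006 of the 8740 others are paired with 1 gene symbol, 308 with more than 1 and 1426 with none. Values below 0.1 (4 in the table) were set to 0.1 and log2 was taken.

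Arrays were grouped by their titles, which also tie each treated array to its control. The fit was limma (version 3.58.1, R 4.3.3) over the 4 groups, with the experiments as a fixed replicate block and with a trend in the prior variance (6 residual and 6.94 prior degrees of freedom), with Benjamini-Hochberg adjustment over all probe sets and a threshold of 0.05. The number of arrays limits the precision. Arrays of the same experiment deviated from their groups together (18 pairs, r from 0.44 to 0.71). The script was tested on simulated data.

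All probe sets of the 4 genes are named, along with the brightest gene and the gene with the largest difference of each list, genes past the test, and the 3 genes most like each member. Of these last, 2 are not reported here. Serpinb2, Plg, Itgam, Csf1r, Aif1, Ptprc, Aqp4, Dcn and Flt1 were named after their values were seen. The members and lists were chosen with earlier results of these data known. The alternatives were other normalizations, floors, filters, blocks, variance priors, an analysis of variance without the block at the criteria of the methods, and leaving out each replicate. Experiments 1 and 2 with centred arrays were added after the data were seen.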

Additional observations from a re-analysis of the deposited data

How the results depend on the processing

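In 480 comparisons of a log2 difference under an alternative with its value as reported, 447 kept direction and side of the threshold, 32 changed sign and 1 passed the test. The 1 was Plat with M/M when only the 2 groups compared were fitted (1.42), which made the count of members past the threshold 1 in place of 0. The fit without the replicate block left every estimate as it was, such as 0.99 for Plaur with M/M, and called 0 members. For all probe sets with M/M, 23 passed as reported, 0 without the block, 0 with centred or quantile-normalized arrays, 0 with a constant prior variance, 14 with the offset of 16, and 389 with only the 2 groups compared. Without replicate 1 there were 70, without its control array 66 and without replicate 3 34, but 0 without replicate 2, without the control array of replicate 2 or 3, or without any 1 M/M array. With Th1 0 passed as reported, 58 without replicate 3, 82 without its Th1 array and 120 in experiments 1 and 2 centred, where M/M also had 120. With Th2 the count was 1 as reported, 13 with only the 2 groups compared, 2 without replicate 2, 3 without its Th2 array and 0 with any other replicate or array left out. The fold and p criteria of the methods were met by 242, 596 and 299 with Th1, M/M and Th2. Centred arrays turned Serpine2, M/M minus control, to -0.28, Plau, Th1 minus M/M, to 0.22, Plat, Th1 minus M/M, to 0.021 and Plaur, M/M minus Th2, to -0.044. Quantile normalization turned the first, second and last of these to -0.20, 0.10 and -0.029. Centred arrays of experiments 1 and 2 gave -0.33 for Serpine2, M/M minus control, -0.15 for Plaur, M/M minus Th2, and for Th1 minus M/M 0.073 for Plat, 0.028 for Plaur and 0.021 for Serpine2. With 1 replicate or array left out, Serpine2 ranged from -0.34 to 0.0875 for Th1 minus control, from -0.023 to 0.29 for M/M minus control, from -0.51 to 0.0115 for Th1 minus M/M and from -0.14 to 0.31 for Th1 minus Th2. Plat ranged from -0.74 to 0.0965 for Th1 minus M/M and from -0.35 to 0.49 for Th1 minus Th2. Plaur ranged from -0.52 to 0.019 for Th1 minus M/M, from -0.33 to 0.040 for Th1 minus Th2 and from -0.093 to 0.35 for M/M minus Th2, and Plau from -0.19 to 0.080 for Th1 minus M/M. The same ranges against control were 0.33 to 1.66, 0.79 to 1.91 and 0.40 to 1.54 for Plat and 0.45 to 0.88, 0.75 to 1.19 and 0.70 to 0.95 for Plaur with Th1, M/M and Th2, and for Plau -0.40 to -0.108, -0.27 to -0.038 and 0.23 to 0.43, and 0 members passed. The cause was not tested for any of these changes. The number of arrays and the dim signals of Plg, Itgam and Itgb3 limit what can be seen.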
